A study of Schizosaccharomyces pombe with 16 samples.

Results

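The transcripts described here are the 200 most abundant long non-coding RNAs of wild type fission yeast, Schizosaccharomyces pombe, out of 1538 transcripts whose identifiers begin with SPNCRNA. They were chosen by their own measured level, the mean normalized count of the 2 wild type RNA-Seq libraries, and 2 identifiers were left out beforehand. The last places were held by SPNCRNA.939 with a wild type mean of 216.4 and SPNCRNA.1102 with 215.1, while SPNCRNA.781 with 214.6 and SPNCRNA.1027 with 214.3 fell just outside. Wild type levels, and any ratio to wild type, are therefore descriptions below and carry no test.

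Long non-coding RNAs of fission yeast are transcribed by RNA polymerase II between genes, across gene ends and antisense to coding sequences. Many are held at low levels by the nuclear exosome and its cofactors, and several that escape act in cis on the gene next to them, as in phosphate uptake and in the switch to meiosis. Zfs1 is a CCCH zinc finger protein of the tristetraprolin family, which binds AU-rich elements (AREs) in RNA and promotes decay of its targets.

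The series asks which RNAs are bound by Zfs1 and which change without it. Cells grew exponentially in minimal medium (EMM) at 25°C. In RIP-Seq, a strain with Zfs1-TAP at its own locus (h-) and a control strain with GFP-TAP (h+, ura4-D18, leu1 replaced by GFP-TAP under the nmt1 promoter) each gave a total RNA input and an immunoprecipitate (IP) in 3 experiments. In RNA-Seq, wild type and zfs1Δ cells were compared in 2 experiments, so that 16 libraries entered. The study's strain list gives its untagged wild type and zfs1Δ strains as homothallic, but which strains were sequenced is not stated. The study describes the experiments as biological repeats, and the spread below is that between them.

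Several facts of the libraries touch what follows. In the Zfs1-TAP input of experiment 1, ribosomal RNA made up 72.1% of the normalized counts, against 0.388% and 0.0945% in experiments 2 and 3, and the GFP-TAP input of experiment 1 held 34.7%. The median log2 IP/input ratio of all transcripts tested was −1.50 in experiment 1 of Zfs1-TAP but 0.14 and 0.10 in experiments 2 and 3, so results are also given with each library centred on its median and without experiment 1. The zfs1 transcript stood at 10098 and 10660 normalized counts in wild type and at 6168 and 5866 in the libraries labelled zfs1Δ, lower but far from absent, and the part of the transcript that was deleted cannot be read from these values. Inputs from Zfs1-TAP cells held 5356 to 11183 of the leu1 transcript, and those from GFP-TAP cells, in which leu1 was replaced, held 430.1 to 477.6.

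The level of the members was very uneven. In wild type the median member had 422.2 normalized counts, 7 members had 10000 or more, 37 had 1000 or more and 51 had under 300. The 5 highest together held 72.5% and 73.4% of the members' counts in the 2 wild type libraries. As a group the members held 1.38% and 1.40% of each wild type library and 91.9% and 92.1% of all SPNCRNA counts. The 2 wild type libraries were close for these transcripts, with no member more than 2-fold apart.

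**Figure D1:**
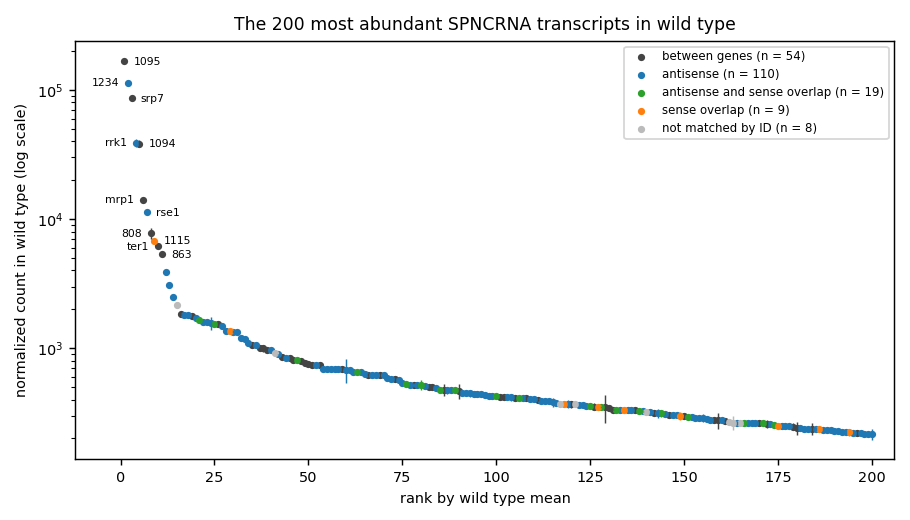
Normalized count in wild type on a log axis against rank for the 200 members; points are means of 2 libraries, vertical lines join the 2 libraries, colours give the position relative to protein-coding genes, and numbers are SPNCRNA identifiers. A steep head of few transcripts gives way to a long shallow tail that ends at 215.1.

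Some of the transcripts at the head of the list are RNAs with a structural or catalytic role, so the label of long non-coding RNA does not hold for all of them. The third, srp7 (SPNCRNA.98, chromosome I, 4268662 to 4268916), is the 7SL RNA of the signal recognition particle and had 81987 and 91627 normalized counts. The fourth, rrk1 (SPNCRNA.128, chromosome III, 989942 to 990834), is the RNA of RNase P and had 36454.5 and 41526. The sixth, mrp1 (SPNCRNA.82, chromosome I, 1234451 to 1234849), is the RNA of RNase MRP and had 13691 and 14551. The tenth is ter1 (SPNCRNA.214), the telomerase RNA, with 5990 and 6355. SPNCRNA.727, fifteenth with 2043 and 2270, is annotated as a second name of the mrp1 gene, so that reads of the same RNA are split between 2 identifiers. A further 7 members are annotated as small nucleolar RNAs or their precursors, among them snoZ (SPNCRNA.659), snoR61 (SPNCRNA.445) and snR30 (SPNCRNA.906). Of 192 members that matched the RefSeq annotation (ASM294v3) by identifier, 188 carried the biotype lncRNA. Coordinates here are those of ASM294v3 and may differ from the ends in the annotation that the authors used.

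The other transcripts at the head, apart from rse1, have no named role. The highest, SPNCRNA.1095 (chromosome III, 23919 to 24438, minus strand), had 160861 and 171518 normalized counts, and SPNCRNA.1094 (chromosome III, 23658 to 23889), the fifth, had 36079.5 and 40748. Both lie near the end of chromosome III, at 789 and 528 bases from the nearest annotated ribosomal RNA gene. The second, SPNCRNA.1234 (chromosome III, 1837499 to 1840092), runs antisense across the whole of nmt1, a thiamine-repressed gene of thiamine synthesis, and had 110832 and 117635. The seventh, rse1 (SPNCRNA.111, chromosome II, 3978331 to 3982106), had 11592 and 10899; its annotated role is to repress ste11, the master regulator of sexual differentiation, in cis. The eighth, SPNCRNA.808 (chromosome I, 2265549 to 2265838, minus strand), lies between genes and had 7068 and 8454. Per kilobase of transcript, which allows levels of different genes to be compared, srp7 came first with 340418 normalized counts per kb, ahead of SPNCRNA.1095 with 319595 and SPNCRNA.1094 with 165576. On that scale the median of 197 members with a length was 323.1.

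Most of the members overlapped a gene. Of the 192, 110 lay antisense to a protein-coding gene, 19 overlapped one gene antisense and another in sense, 9 overlapped in sense and 54 lay between genes. By the same count the 1236 other SPNCRNA transcripts had 644, 71, 91 and 430. The annotation calls 29 members possible alternative UTRs of a neighbour and 6 centromeric.

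The genes under these antisense members had an unusual pattern in the RNA-Seq table. A total of 50 members span a protein-coding gene on the other strand from end to end and that gene is listed at 0 in all 4 RNA-Seq libraries. For 23 of them the spanned gene nevertheless had 100 or more normalized counts in each of the 6 RIP-Seq inputs. Examples were nmt1 under SPNCRNA.1234, with a mean of 126794 over the inputs, lys9 of lysine synthesis under SPNCRNA.1597, with 10291, btf3 of the nascent polypeptide-associated complex under SPNCRNA.1030, with 7799, and the splicing factor gene srp2 under SPNCRNA.986, with 2903. Genes in general use such as srp2 are among them, so each is described only as listed at 0. Across the genome, 128 of 155 protein-coding genes (82.6%) that lie wholly under an antisense SPNCRNA transcript were listed at 0 in every RNA-Seq library, against 195 of 4146 (4.70%) with no antisense SPNCRNA. RNA-Seq values of spanned genes are not used below.

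Relative to the inputs, the spanning members themselves had a lower median in that table than members between genes. The log2 ratio of the wild type mean to the mean of the 6 inputs had a median of 1.15 for the 50 members that span a gene at 0. For the 3 members that span a gene above 0 it was 0.33. Other members that are only antisense had 1.34, those between genes 2.32 and protein-coding genes 2.00. The wild type mean also chose the members but not the protein-coding genes, and the 2 tables were normalized separately. Only the order of the member medians is therefore described. Per the study's methods, RSEM counted reads by strand (dUTP libraries); why the spanned genes are listed at 0 was not tested.

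**Figure D2:**
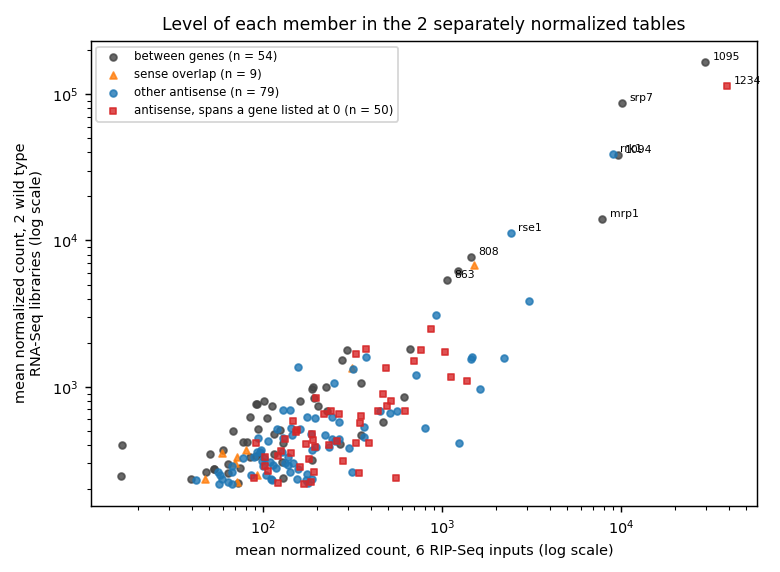
Mean normalized count in the 2 wild type RNA-Seq libraries against the mean of the 6 RIP-Seq inputs, both on log axes, for 192 members; red squares span a protein-coding gene that the RNA-Seq table lists at 0. The red squares lie among the other antisense members, while the members between genes lie higher for the same input value.

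The ranking was in part particular to the RNA-Seq libraries. Of the 200 members, 79 were also among the 200 SPNCRNA transcripts with the highest mean over the 6 inputs, and 6 of the first 10 were among the 10 highest there. Spearman's rank correlation of the wild type mean with single inputs was 0.62 to 0.70 over the 200 members, and with the zfs1Δ libraries 0.92 and 0.93. Between the inputs of the tagged strains, 1 member was over 4-fold higher in Zfs1-TAP in both experiments 2 and 3 and 4 were over 4-fold lower, namely SPNCRNA.427, SPNCRNA.808, meu3 and SPNCRNA.723, with log2 differences from −4.46 to −2.02. The higher one had the widest gap. SPNCRNA.863 (chromosome I, 2939138 to 2940765), eleventh in wild type with 5166 and 5548 normalized counts, had 3384, 1576 and 1414 in inputs from Zfs1-TAP cells. Inputs from GFP-TAP cells held 22.6, 3.41 and 1.49. These are log2 differences of 7.16, 8.48 and 9.15. All 5 were chosen for mention after the values were seen. The strains differ in mating type and auxotrophic markers as well as in the tag, and these cannot be told apart. In experiments 2 and 3, 166 of the 200 members were within 2-fold between the inputs of the 2 strains.

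The first comparison asked which members were enriched with Zfs1. Of 198 members tested, 10 were higher in the Zfs1 IP than in the input and 23 were lower (limma, adjusted p under 0.05 over 5929 transcripts). This fit gave every transcript the same standard error, so its p-values do not measure the spread of a single member. Among all transcripts tested, 10.3% were called higher and 10.8% lower, and among members 5.05% and 11.6%. With each library centred on its median, 40 members were higher and 55 lower, where 27.5% and 33.8% of all transcripts were. Dropping experiment 1 gave 57 and 43, against 34.3% and 23.7%, and dropping experiment 2 or 3 gave 0 and 3. Of the other SPNCRNA transcripts 4.45% were then called higher and 4.45% lower without experiment 2. Without experiment 3 these shares were 3.09% and 4.44%. The members' median log2 ratio of −0.45 was close to the median of all transcripts, −0.44, whereas the 757 other SPNCRNA transcripts tested had a median of −0.16 and 13.1% of them were called higher.

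The members that rose in the Zfs1 IP ranked from 29 to 195 in wild type. The highest was SPNCRNA.1518 (chromosome II, 2465985 to 2468003, minus strand), ranked 113, which lies antisense to bzz1 over 1976 bases. It had 618, 137.7 and 144.4 normalized counts in the inputs. The Zfs1 IPs stood at 1753, 2274 and 2699, and no input reached an IP. Its mean log2 ratio was 3.25 (SD 1.52, n = 3; limma, adjusted p = 0.000297). In the GFP-TAP strain it had 221, 135.2 and 151.8 in the inputs and 133.2, 105.7 and 69.9 in the IPs, all of the IPs below every input.

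SPNCRNA.866 (chromosome I, 2971998 to 2975970) was second. It went from 342.9, 113.5 and 165.6 in the inputs to 1721, 1426 and 1500 in the Zfs1 IPs, a mean log2 ratio of 3.05 (SD 0.67, n = 3; limma, adjusted p = 0.000805). The GFP-TAP ratios of −0.51, 0.23 and −0.11 scattered around 0.

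The named transcript nam1 (SPNCRNA.1459, chromosome II, 1742555 to 1744043, minus strand) is a cis-acting lncRNA annotated as repressing byr2, which encodes a kinase of the pheromone response. Ranked 29 with 1303 and 1388 normalized counts in wild type, it had 632, 234.4 and 206.7 in the inputs and 1682, 1799 and 1967 in the Zfs1 IPs. Each IP was above each input, and the mean log2 ratio was 2.53 (SD 0.98, n = 3; limma, adjusted p = 0.00654). In GFP-TAP its ratios were −0.28, −0.41 and −0.34. Its end overlaps mlo3 by 76 bases in sense, and mlo3 had ratios of −1.99, 1.13 and 0.22 in Zfs1-TAP.

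Of the other members that rose, some lay beside a gene that was itself enriched. SPNCRNA.666 lies antisense to nab3 over 1802 bases and had log2 IP/input ratios of 0.86, 2.79 and 3.10, while nab3 had 2.16, 4.70 and 4.61. SPNCRNA.791 lies antisense to the recombination gene rad55 over 902 bases and had 1.72, 2.47 and 2.96, while rad55 had 1.16, 3.20 and 3.05. SPNCRNA.1297 overlaps SPCC569.05c by 90 bases in sense and had 1.30, 3.43 and 3.66, while SPCC569.05c had 1.68, 4.03 and 3.41. By contrast the gene across from SPNCRNA.1518, bzz1, had −1.99, −0.21 and −0.48, and aah2, across from SPNCRNA.982, had −1.47, 0.64 and 0.93 beside 0.72, 3.28 and 3.70 of SPNCRNA.982 itself. Over 127 members with a measured antisense partner, the Spearman correlation of the member's mean ratio with its partner's was 0.36; these pairs come from the same libraries.

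The remaining members that rose, SPNCRNA.857, SPNCRNA.1443 and SPNCRNA.1097, each hold the ARE nonamer TTATTTATT (with U for T in the RNA), the sequence that tristetraprolin proteins bind best. They are shown because they are the only members called higher that carry it. Each line gives 29 bases of the transcript's own strand, read 5′ to 3′ from the ASM294v3 genome as DNA, with the nonamer in capitals. The sites of SPNCRNA.857 lie on chromosome I plus strand from 2872697 to 2872725 and from 2872789 to 2872817, that of SPNCRNA.1443 on chromosome II plus strand from 1555861 to 1555889, and that of SPNCRNA.1097 on chromosome III minus strand from 39719 to 39747.
SPNCRNA.857, first site: ccctcgatacTTATTTATTtgttgatcac
SPNCRNA.857, second site: aaaaaaaaaaTTATTTATTcattctaatc
SPNCRNA.1443: atttttatttTTATTTATTtttcatttta
SPNCRNA.1097: atcaaaattaTTATTTATTgatggtctat

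SPNCRNA.857, the only member with 2 nonamers, had 732.5, 244.6 and 212.9 normalized counts in the inputs and 1442, 2414 and 1830 in the Zfs1 IPs. Its mean log2 ratio was 2.46 (SD 1.29, n = 3; limma, adjusted p = 0.0085), and its GFP-TAP ratios of −1.35, −1.26 and −1.31 were all negative. SPNCRNA.1443 had ratios of 2.25, 1.87 and 2.81 (SD 0.48). SPNCRNA.1097 had 0.84, 2.71 and 2.45 (limma, adjusted p = 0.0365).

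The nonamer was searched as TTATTTATT on the sense strand of the annotated transcript. It occurred in 16 of 192 members (8.33%), against 8.66% of other SPNCRNA transcripts and 11.3% of protein-coding transcripts. The members were longer than other SPNCRNA transcripts, with median lengths of 1633.5 and 987.5 bases. Per kb the members held 0.052 nonamers, other SPNCRNA transcripts 0.099 and protein-coding transcripts 0.068. Among transcripts within the length quartiles of the members, the shares with the nonamer were 6.25%, 10.6% and 10.5%. In the Zfs1 IP the 16 had a median log2 ratio of 0.54, 12 of them were above 0, and 3 were called higher and 1 lower, while the 174 members without it that were tested had a median of −0.52 and 53 were above 0. In the GFP IP the medians were −0.36 and −0.50. The same split was seen outside the list, with medians of 0.98 and −0.21 for other SPNCRNA transcripts and 1.81 and −0.64 for protein-coding transcripts with and without the nonamer. On the opposite strand the nonamer occurred in 17 members, whose median ratio was 0.23. A match to these letters is a description of the sequence and not of a binding site, and 7 of the 10 members called higher hold none.

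The members that fell in the Zfs1 IP included the structural RNAs. For rrk1, input libraries were at 21096, 6918 and 7266 normalized counts and the Zfs1 IPs at 152.3, 266.9 and 187.8, so that all IPs were far below all inputs (mean log2 ratio −5.69, SD 1.26, n = 3; limma, adjusted p = 4.42e-12). In limma with median centring the adjusted p of rrk1 was 0.00171. For mrp1 the inputs were at 17892, 4525 and 6501 and the IPs at 277.3, 869.7 and 617.0 (mean −3.93, SD 1.87; limma, adjusted p = 6.96e-06). The telomerase RNA ter1 also fell, with ratios of −3.85, −1.76 and −1.89 (limma, adjusted p = 0.00739). The 7SL RNA srp7 did not pass, with −3.36, 0.29 and −1.16. SPNCRNA.475, a small non-coding RNA of 188 bases, fell from 1025, 42.7 and 43.9 to 38.6, 0.841 and 12.6 (limma, adjusted p = 3.28e-05). SPNCRNA.228 and SPNCRNA.1119 followed, with mean ratios of −3.03 and −2.66 and IP values as low as 0.689 and 0.757, where a ratio depends on the pseudocount of 1. With median centring the adjusted p of SPNCRNA.1119 was 0.0638.

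**Figure D3:**
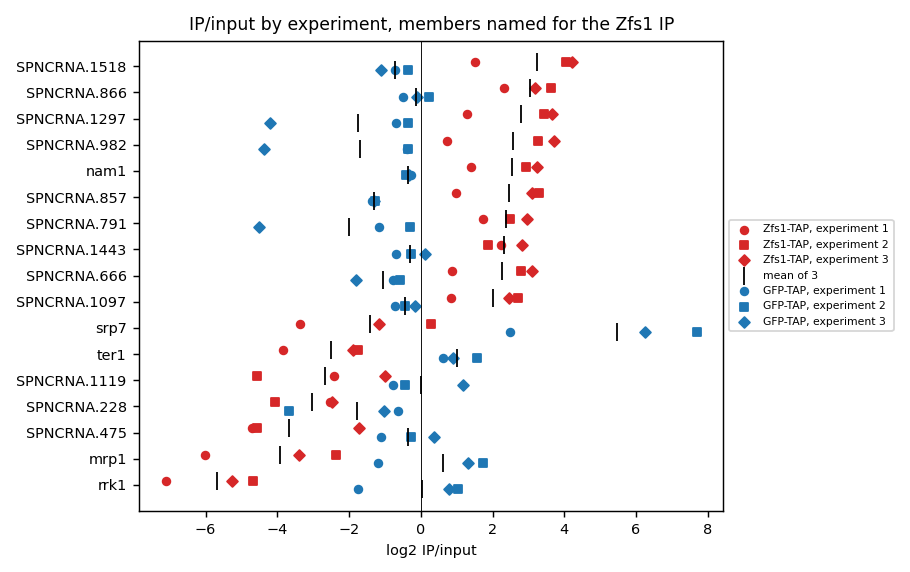
Log2 IP/input in each experiment for the 10 members highest and the 5 lowest in the Zfs1 IP, with srp7 and ter1; red is Zfs1-TAP, blue GFP-TAP, marker shapes are experiments and black ticks are means. For the first 10 every red point is above 0, and for rrk1 every red point is below −4.

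In the control IP no member was called. None of 200 members passed in the GFP IP, with 0 higher and 0 lower than the input (limma, adjusted p under 0.05 over 5887 transcripts), where 0.034% and 0.17% of all transcripts were. At an unadjusted p under 0.05 in limma, 11 members were higher and 56 lower. The share of all transcripts at that threshold is not given, so nothing about the members is read from these counts. A fit in which the prior variance follows the mean level called 11 members higher and 32 lower, beside 11.1% and 7.3% of all transcripts. The log2 ratio of GFP IP to input had a median of −0.45 over the members, that of other SPNCRNA transcripts −0.82 and that of all transcripts −0.01. In all 3 experiments 93 members were below 0 and 22 above 0. Against the median of all transcripts in each experiment, 95 members were below in all 3 and 25 above.

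The largest value belonged to srp7. It had 25103, 1866 and 1391 normalized counts in the GFP-TAP inputs and 140502, 386506 and 105166 in the GFP IPs, log2 ratios of 2.48, 7.69 and 6.24. Every IP was thus above every input. The adjusted p was 0.113 in limma with one prior variance and 5.53e-18 with the variance following the mean. The low end was shaped by experiment 3, in which 31 members had under 5 normalized counts in the GFP IP, against 1 and 5 in experiments 1 and 2. SPNCRNA.982 had 80.7, 53.9 and 2.68 in the GFP IPs, and SPNCRNA.1297 had 31.6, 34.0 and 2.21.

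The comparison of both IPs asked whether the enrichment differed between Zfs1-TAP and GFP-TAP. Relative to their inputs, 15 of 200 members were enriched more in the Zfs1 IP and 10 less (limma, interaction of IP and strain, adjusted p under 0.05 over 5933 transcripts). Among all transcripts the shares were 6.69% and 3.62%, and among members 7.5% and 5%. With median centring the counts were 42 and 17, against 19.9% and 24.7% of all transcripts. Leaving the experiment out as a block gave 9 and 5, and leaving out experiment 3 gave 0 and 2.

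All 10 members highest in the Zfs1 IP were among the 15. The Zfs1 libraries that chose these 10 also enter this test, so their passing is no separate support for them. SPNCRNA.1297 had the largest difference, 4.55 (SE 0.97; limma, adjusted p = 0.00778), followed by SPNCRNA.791 with 4.38 and SPNCRNA.1431 with 4.34. The first places rest on the GFP IP of experiment 3, where SPNCRNA.1297 and SPNCRNA.791 had 2.21 and 2.60 normalized counts; without experiment 3 their differences were 2.89 and 2.83, that of SPNCRNA.1518 was 3.31, and none of these passed. SPNCRNA.1431 lies between genes and is the member with the lowest adjusted p in that direction, 0.00409 (limma). It was chosen for mention after the values were seen. SPNCRNA.1431 was not among the 10 members called higher in the Zfs1 IP against its input, and without experiment 3 no member passed in this direction. At the other end, srp7 differed by −6.88 (SE 1.12; limma, adjusted p = 0.00112), rrk1 by −5.71 (SE 0.89; limma, adjusted p = 0.000741), mrp1 by −4.54 and ter1 by −3.51. SPNCRNA.1234 and SPNCRNA.1095 were also in this group, with −2.88 and −2.90, as were SPNCRNA.475 with −3.31 and, outside the rule for named members, SPNCRNA.1651 with −4.98, SPNCRNA.847 with −3.65 and SPNCRNA.826 with −2.56. Of the 100 higher-ranked members 4 were enriched more and 10 less. Of the 100 lower-ranked members 11 were enriched more and 0 less. The median log2 ratio in the GFP IP, which enters this difference, was −0.37 for the higher-ranked and −0.73 for the lower-ranked members. Rank is the wild type level that chose the members, and the matching shares of all transcripts are not given. No trend with level is therefore read from these counts. The ratios of SPNCRNA.1095 in Zfs1-TAP were −3.27, −1.62 and −1.68.

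**Figure D4:**
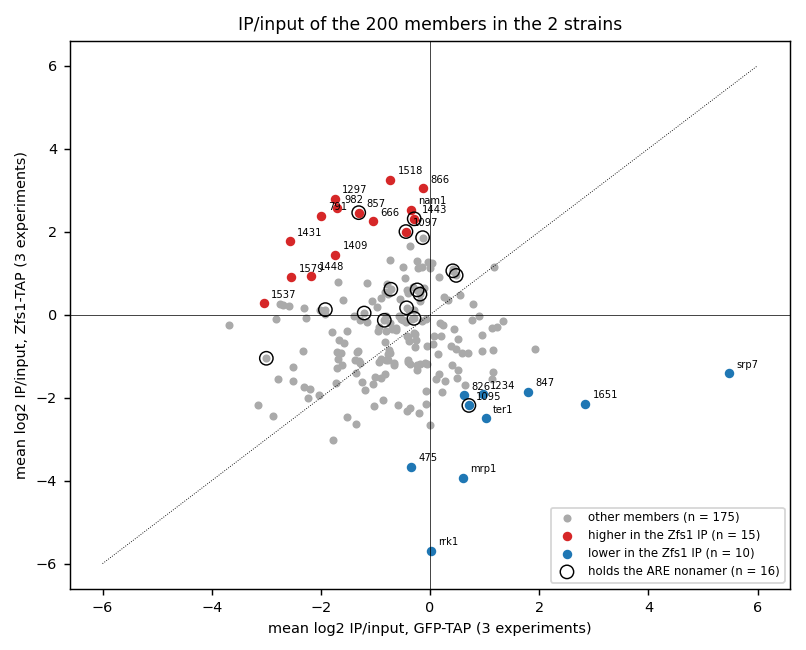
Mean log2 IP/input over 3 experiments in Zfs1-TAP against GFP-TAP for the 200 members; red and blue points differ between the strains at an adjusted p under 0.05 in limma, rings mark the 16 members with the nonamer, the dotted line marks equal values and numbers are SPNCRNA identifiers. The 15 red points lie at the upper left and the 10 blue points at the lower right, where srp7 is farthest out.

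The last comparison set zfs1Δ against wild type. Because wild type levels chose the members, these values are described without a test, and in bulk RNA a lower level per cell cannot be told apart from fewer cells holding the transcript. For reference only, the fit over all 5177 transcripts called 28% of them higher and 13.9% lower, and 46 and 61 of the 200 members; among 402 other SPNCRNA transcripts the shares were 26.6% and 34.6%. With median centring 21 and 68 members were called, beside 20.1% and 19.5% of all transcripts. Nothing is read from these counts, since the denominator of the ratio chose the members. Most ratios were small, with the middle of the members between −0.24 and 0.16 on the log2 scale and a median of −0.03.

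The lowest ratio was that of rse1. It had 11592 and 10899 normalized counts in wild type and 2398 and 2248 in zfs1Δ, log2 ratios of −2.27 and −2.28, so that the groups were far apart. The transcript of ste11, the gene that rse1 is annotated to repress, was at 3158 and 3053 in wild type and at 257.2 and 229.3 in zfs1Δ. In the Zfs1 IP rse1 had ratios of −1.36, −0.12 and 0.17 and was not called. SPNCRNA.1190 (chromosome III, 1371577 to 1372674), next to the cell wall glucan synthase gene ags1, came next, with 391.7 and 345.3 in wild type and 92.7 and 123.2 in zfs1Δ. For SPNCRNA.863 the experiments disagreed, with 4054 and 1214 in zfs1Δ against 5166 and 5548 in wild type. SPNCRNA.1358 and SPNCRNA.1368, antisense to eca39 and to the repair gene rhp14, had ratios of −0.92 and −1.13 and of −0.89 and −1.11.

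The highest ratio was that of SPNCRNA.1115 (chromosome III, 170340 to 174289), annotated as a possible alternative UTR. It had 6731 and 6854 in wild type and 20805 and 22655 in zfs1Δ, log2 ratios of 1.63 and 1.72. It overlaps SPCC1235.01 by 391 bases in sense, and that gene had log2 ratios of 1.72 and 1.79. SPNCRNA.727, the second identifier of mrp1, had 1.42 and 0.89, while SPNCRNA.82 had 0.65 and 0.28. SPNCRNA.1270, antisense to the acetyltransferase subunit gene epl1 over 521 bases, had 0.91 and 0.57 beside 0.17 and 0.12 of epl1.

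Apart from SPNCRNA.362, the centromeric transcripts, which are made from repeats that also feed small RNA silencing, were above their wild type level in both experiments. The median log2 ratio of all transcripts tested was 0.09 in experiment 1 and 0.01 in experiment 2, and SPNCRNA.362 lay below both. Wild type levels also chose these members, so this is a description and no test. SPNCRNA.372 had 261.4 and 436.3 in wild type and 768 and 699 in zfs1Δ, and nam5 (SPNCRNA.230) had 521.7 and 516.3 against 853 and 773. SPNCRNA.360 had log2 ratios of 0.68 and 0.49, SPNCRNA.232 of 0.44 and 0.25, SPNCRNA.359 of 0.28 and 0.18, and SPNCRNA.362 of 0.05 and −0.02. Repeats of this kind share sequence, so the split of reads among them is uncertain.

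Some members near the left end of chromosome III, chosen for mention after the values were seen, also had low ratios. SPNCRNA.1096 (37658 to 39319) had −0.87 and −0.99 and meu3 (SPNCRNA.07, 41985 to 42728) had −0.81 and −0.85, while SPNCRNA.1097 between them had −0.05 and −0.36 and the gene SPCC1884.01 had −1.47 and −1.51. Closer to that end, SPNCRNA.1094 had 0.22 and −0.02 and SPNCRNA.1095 had 0.16 and −0.02. The structural RNAs differed between experiments. For srp7 the ratios were 0.82 and 0.09, for rrk1 0.63 and 0.04 and for mrp1 0.65 and 0.28. Only SPNCRNA.1343 stands for the phosphate-linked transcripts among the members. It is annotated as the bidirectional partner of the lncRNA nc-tgp1 and had −0.03 and −0.41, and tgp1, the transporter gene beside nc-tgp1, had 0.08 and 0.06. Of the other listed names in the table, prt2 had 0.43 and 0.48, the phosphatase gene pho1 −1.46 and −1.22 and the transporter gene pho84 −1.66 and −1.33.

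**Figure D5:**
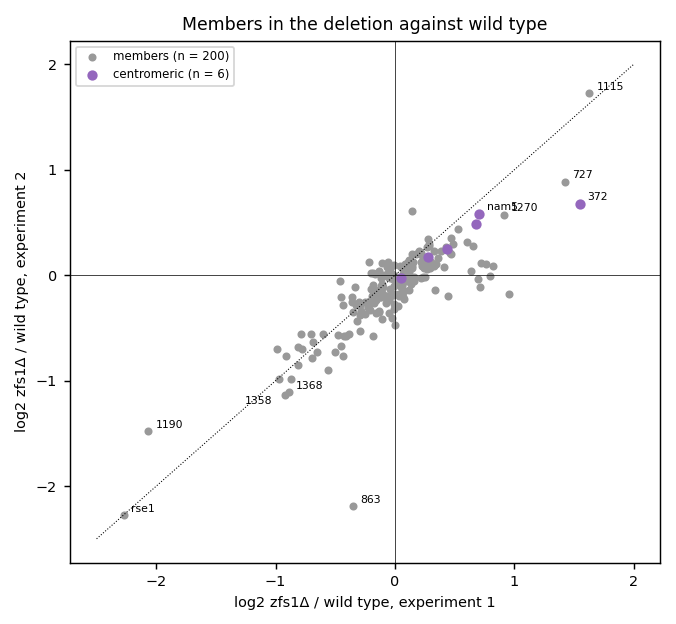
Log2 ratio of zfs1Δ to wild type in experiment 2 against experiment 1 for the 200 members, with the 6 centromeric transcripts in purple, the dotted line at equal values and numbers giving SPNCRNA identifiers. Most members lie near 0; rse1 stands apart at the lower left, SPNCRNA.1115 at the upper right, and SPNCRNA.863 is low in experiment 2 only.

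The genes of nuclear RNA surveillance, which degrade or silence such transcripts, were followed as a list of 27, all of which were measured. In the Zfs1 IP, 1 was higher and 2 were lower (limma, adjusted p under 0.05), where 10.3% and 10.8% of all transcripts were, and with median centring 5 and 7, where 27.5% and 33.8% were. The transcript of red5, a zinc finger protein of the exosome-targeting complex, had log2 ratios of 1.35, 4.10 and 3.60 in Zfs1-TAP. Those of the exosome cofactor cti1 and of erh1, the partner of the meiotic RNA eliminator Mmi1, had means of −2.03 and −2.09. In the GFP IP, 0 of the 27 were called, where 0.034% of all transcripts were called higher and 0.17% lower. In zfs1Δ, 3 were called higher and 2 lower, where 28% and 13.9% of all transcripts were, and with median centring 2 and 4, where 20.1% and 19.5% were. The exosome subunit rrp40 had the highest ratios, 0.63 and 0.72.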

How the data were processed

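Total RNA and immunoprecipitated RNA were depleted of ribosomal RNA and sequenced from both ends (100 bp, strand-specific) by the authors. Per the labels and the study's methods, reads were aligned with Bowtie 0.12.7, counted per transcript with RSEM 1.1.19 and normalized with edgeR; deposited values are such normalized counts (a signal, not whole reads), so sequencing depth is unknown and no counting interval is given. The RIP-Seq and RNA-Seq tables were normalized separately. Sums of the deposited values ran from 8042870 to 72878500 per library.

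Values were taken as log2(normalized count + 1), which understates the change of low transcripts. Only transcripts that averaged 1 CPM or more were tested, with limma 3.58.1 (R 4.3.3; lmFit, eBayes with one prior variance) with the experiment as a block, and p-values were adjusted over all transcripts tested (Benjamini-Hochberg, called under 0.05). In the Zfs1 fit this gave every transcript the same standard error, 0.74. A prior variance that follows the mean level, used in an earlier analysis of these files, was an alternative; others were the pseudocount, filter, scaling, block and libraries left out. The fit was also run on simulated data with the same normal noise for every transcript and no difference between experiments. That setting lacks the shift of experiment 1 in the Zfs1-TAP libraries, so nothing about these p-values is drawn from it. Input and IP of one experiment share its number in the labels; deviations of same-numbered libraries from their group means correlated at 0.48, 0.23 and 0.37 (Zfs1-TAP), 0.28, 0.23 and 0.098 (GFP-TAP) and −0.066 (RNA-Seq).

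Of 7018 transcripts, 6859 matched the RefSeq annotation ASM294v3; of the members, 192 matched by identifier, 5 by synonym and 3 not. Members without a match by identifier were left out of position and motif counts. Named were the 10 highest in wild type, the 10 highest and 5 lowest called with one sign in all 3 experiments in the Zfs1 IP, the same (5 and 5) in the GFP IP, of which there were none, the 5 highest and 5 lowest ratios of zfs1Δ to wild type, and members on fixed lists; prl59 (SPNCRNA.59) had mean log2 ratios of −2.19 in the Zfs1 IP and −3.15 in the GFP IP. Of the lists, the phosphate-linked one had 4 of 6 names in the table and 0 called in the Zfs1 IP, the meiosis-linked one 2 of 3, of which nam1 was called. Members and lists were chosen with earlier results of these data known. The sequence around 1 further site is not reported here.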

Additional observations from a re-analysis of the deposited data

Results flagged for a closer look

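For the members below the log2 IP/input ratio differed between Zfs1-TAP and GFP-TAP in the test of the difference itself (limma, adjusted p under 0.05), given as Zfs1-TAP minus GFP-TAP. It was positive for SPNCRNA.1297 (4.55), SPNCRNA.791 (4.38), SPNCRNA.982 (4.26), SPNCRNA.1518 (3.98), SPNCRNA.857 (3.76, 2 nonamers), SPNCRNA.666 (3.30), SPNCRNA.866 (3.17), nam1 (SPNCRNA.1459, 2.87), SPNCRNA.1443 (2.60) and SPNCRNA.1097 (2.44). It was negative for srp7 (SPNCRNA.98, −6.88), rrk1 (SPNCRNA.128, −5.71), mrp1 (SPNCRNA.82, −4.54), ter1 (SPNCRNA.214, −3.51), SPNCRNA.475 (−3.31), SPNCRNA.1095 (−2.90) and SPNCRNA.1234 (−2.88). The positive members, and rrk1, mrp1 and SPNCRNA.475, were named for their ratio in the Zfs1 IP, which enters this difference. Passing here is therefore no separate support for them. Groups of 3 or fewer libraries were not examined for single outlying values.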

How the results depend on the processing

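Counts of called members, higher then lower, moved with the following choices. In the Zfs1 IP (10 and 23) they were 36 and 63 with equal totals without ribosomal RNA, 40 and 55 with median centring, 4 and 15 among the 100 highest members, and between 0 and 57 higher and 3 and 43 lower when 1 experiment was left out; without experiment 1 they were 57 and 43, without experiment 2 or 3 they were 0 and 3. In the GFP IP (0 and 0) they were 1 and 5 with a pseudocount of 5, 11 and 32 with a variance trend, and 0 to 2 and 0 to 3 with 1 experiment left out. For the difference (15 and 10) they were 51 and 11 with equal totals, 42 and 17 with median centring, 24 and 15 with a trend, 11 and 6 without the filter on low values, 4 higher among the 100 highest members, 0 to 27 and 2 to 12 with 1 experiment left out, and 9 and 5 without the replicate block. For zfs1Δ, where wild type levels chose the members and the counts are no test of them, 46 and 61 became 19 and 76 with equal totals, 21 and 68 with median centring, 2 and 14 without the filter, 23 and 32 among the 100 highest, 10 to 38 and 32 to 50 with 1 library left out, and 33 and 55 without the replicate block.

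Without the replicate block the Zfs1 IP had 11 and 26 and the GFP IP 0 and 0. Counts among the other SPNCRNA transcripts also moved with the settings of the fit, so nothing about the members is read from these changes. The median over all transcripts moved from −0.44 to −0.22 in the Zfs1 IP with median centring and from −0.01 to −0.47 in the GFP IP with equal totals. No ratio of a named member that was called under either setting changed sign; over all named members and settings 636 kept their side of the threshold, 114 lost it and 17 gained it. Depth is unknown for these tables, so values near 1 normalized count carry an error that is not given.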
